A study of Mus musculus with 16 samples.

Results

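Genes of neutrophils and of the S100 family were followed across mouse mammary tumors with and without a gene trap in *Resf1*. The members, 10 in number, were taken from a list of symbols: the S100 genes *S100a8*, *S100a9*, *S100a4*, *S100a6* and *S100a11*, and the neutrophil genes *Csf3r*, *Cxcr2*, *Lcn2*, *Retnlg* and *Ly6g*. Of these, 9 had values among the 23609 genes of the table, and no values of *Ly6g* were analysed here. The comparison between genotypes was made for 8 of them among 21034 tested genes, since the mean of *Retnlg* was under the minimum of 10.

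Neutrophils are short-lived phagocytes that leave the bone marrow under the control of granulocyte colony-stimulating factor, and that enter tissues along gradients of CXC chemokines. S100 proteins are small calcium-binding proteins. S100A8 and S100A9 form a heterodimer, calprotectin, which makes up much of the neutrophil cytosol and which acts as an alarmin when released, through TLR4 and RAGE. In mammary tumors, neutrophils and their S100 proteins are known from work on the tumor environment and on metastasis to the lung.

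The tumors came from MMTV-PyMT mice, in which the MMTV promoter drives the polyoma middle T antigen in mammary epithelium, and the transgene was carried by both groups. Wildtype tumors (5 used of 8 in the labels) were compared with gene trap tumors (5 used of 8) from littermates that were heterozygous for the trap (*Resf1* +/-). The trap is a lentiviral insertion in the first exon of *Resf1* on a C57BL/6 background, it also expresses an EGFP-cre fusion, and carriers were bred to FVB mice with the PyMT transgene, with F1 offspring studied at the humane endpoint. The trap is in the germline, so it is not limited to one cell type. No treatment was given, and neither the labels nor the methods give the age of these animals. RNA was total RNA of whole tumors, in which fewer cells of a type and less RNA per cell cannot be told apart. Values are estimated counts per gene that the authors normalized between tumors, and are called normalized values here.

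Before the members are described, the tumors themselves were compared. *Resf1* was at 4099 ± 400 in wildtype against 3516 ± 361 in gene trap tumors (SD, n = 5 in each group), with a log2 fold change of -0.22 (SE 0.09, limma p = 0.0313, adjusted p = 0.9997, exact permutation p = 0.0635), and the groups overlapped. Luminal epithelial markers were measured for 10 of 10 genes, and their summed value lay between 85461 and 117882 in all tumors. Gene trap tumor 2 stood apart from the other 9, with a score of 91.8 on the first principal component against -18.6 to -4.78. That tumor had the highest value of the 10 for 22.4% of all tested genes, and for 178 (64.3%) of 277 protein-coding genes with transcripts under 700 bases. The median log2 deviation of those short-transcript genes from the other tumors was 0.73 in it, and between -0.18 and 0.10 in the other 9. Gene trap tumor 3 had the highest value for 7.29% of all tested genes, but it stood out for some immune genes, as described below. The fold changes of tested members that rest on either tumor are given with and without it.

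The sequences just before the transcription starts of *S100a8*, *S100a4*, *S100a9* and *Cxcr2* are shown because the values of *S100a8* and *S100a9* parted in several tumors, those of *S100a9* and *Cxcr2* ran together most closely, and *S100a4* is the other member with values whose window holds the TATA box letters TATAAA. They are 100 bases each, read 5′ to 3′ along the gene from the RefSeq mouse assembly GRCm38.p6, which is an older build than the mm39 of the submitters' processing notes. Capitals mark TATAAA and GAGGAA, the latter also as its reverse complement on the other strand.
S100a8 (chr3:90668971-90669070, plus strand): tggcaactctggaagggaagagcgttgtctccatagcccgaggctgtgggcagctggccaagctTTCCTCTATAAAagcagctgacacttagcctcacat
S100a4 (chr3:90603670-90603769, plus strand): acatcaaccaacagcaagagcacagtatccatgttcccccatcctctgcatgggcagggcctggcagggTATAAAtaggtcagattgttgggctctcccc
S100a9 (chr3:90695722-90695821, minus strand): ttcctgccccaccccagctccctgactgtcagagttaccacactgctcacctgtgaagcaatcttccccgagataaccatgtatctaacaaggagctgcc
Cxcr2 (chr1:74153894-74153993, plus strand): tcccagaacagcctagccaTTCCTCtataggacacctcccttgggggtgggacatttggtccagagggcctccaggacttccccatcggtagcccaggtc
The motifs searched, on both strands of the 250 bases before the start, were TATAAA, the C/EBP motif TTNNGCAA and the PU.1 core GAGGAA. C/EBP factors and PU.1 direct myeloid gene expression. TATAAA stood in 2 of the 9 members with values, against 12.4% of 32851 promoters. In both it lay on the gene's own strand, starting 30 bases before the start of *S100a8* and 31 before that of *S100a4*. Of all promoters, 1.75% hold it on that strand with its first base 35 to 25 bases before the start. GAGGAA was in 5 of 9 members (*S100a8*, *S100a11*, *Csf3r*, *Cxcr2* and *Lcn2*; 23.3% of all promoters). The copy in *S100a8* that begins 36 bases before the start adjoins TATAAA without overlapping it. TTNNGCAA was found in 3 of 9 (*S100a9*, *Lcn2* and *Retnlg*; 9.56% of all promoters), farther upstream than the bases shown. The 3 motifs were chosen with the sequences in view, so the shares among members are not a test of enrichment. A match of letters is a description of the window only.

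Levels differed widely between members. Per kilobase of the longest transcript, the mean over the 10 tumors was 125957 for *Lcn2*, 5247 for *S100a6*, 1367 for *S100a11*, 1076 for *S100a8*, 480 for *S100a4*, 228 for *S100a9*, 28.8 for *Csf3r*, 16.6 for *Retnlg* and 7.02 for *Cxcr2*. The first 2 steps of that order were clear of all tumor-to-tumor spread, since the ranges of *Lcn2* and *S100a6*, and of *S100a6* and *S100a11*, did not overlap. From *S100a11* down, the ranges of each gene and the next overlapped, although within a tumor the higher gene of each pair was higher in 8 or 9 of the 10. The receptor and resistin-like genes of neutrophils lay at the bottom, and the top was held by *Lcn2* and by S100 genes that epithelial and stromal cells also express. The log2 spread over the 10 tumors was larger for *S100a9* than for 99.7% of tested genes, and the share was 99.3% for *Retnlg*, 98.9% for *Cxcr2* and 98.6% for *S100a8*. It was 54.2% for *Lcn2* and 62.3% for *S100a11*. These shares are taken over tested genes of all levels and are not matched for level, and *Retnlg* was itself not a tested gene. *S100a8* had its highest value in gene trap tumor 2, and *S100a9*, *Cxcr2* and *Retnlg* had theirs in gene trap tumor 3.

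No member passed the test for a difference between the genotypes. In limma's test 0 of 8 tested members had an adjusted p under 0.05, as did 0 of all 21034 tested genes (percent called 0), and 0 of 8 had an unadjusted p under 0.05, against 479 (2.28%) of all genes, 278 (1.32%) of them higher and 201 (0.956%) lower in gene trap tumors. The adjusted p was 0.9997 for each tested member. The fold change was above 0 for 7 of 8 members with a median of 0.17 on the log2 scale, whereas 51.4% of all genes were above 0. The groups overlapped for each of the 9 members with values, and 0.528% of all tested genes had groups that did not overlap. With 5 tumors a group the exact permutation test has 252 arrangements and a smallest p of 0.00794. Several of these directions hung on 1 tumor, as given with each gene.

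**Figure D1:**
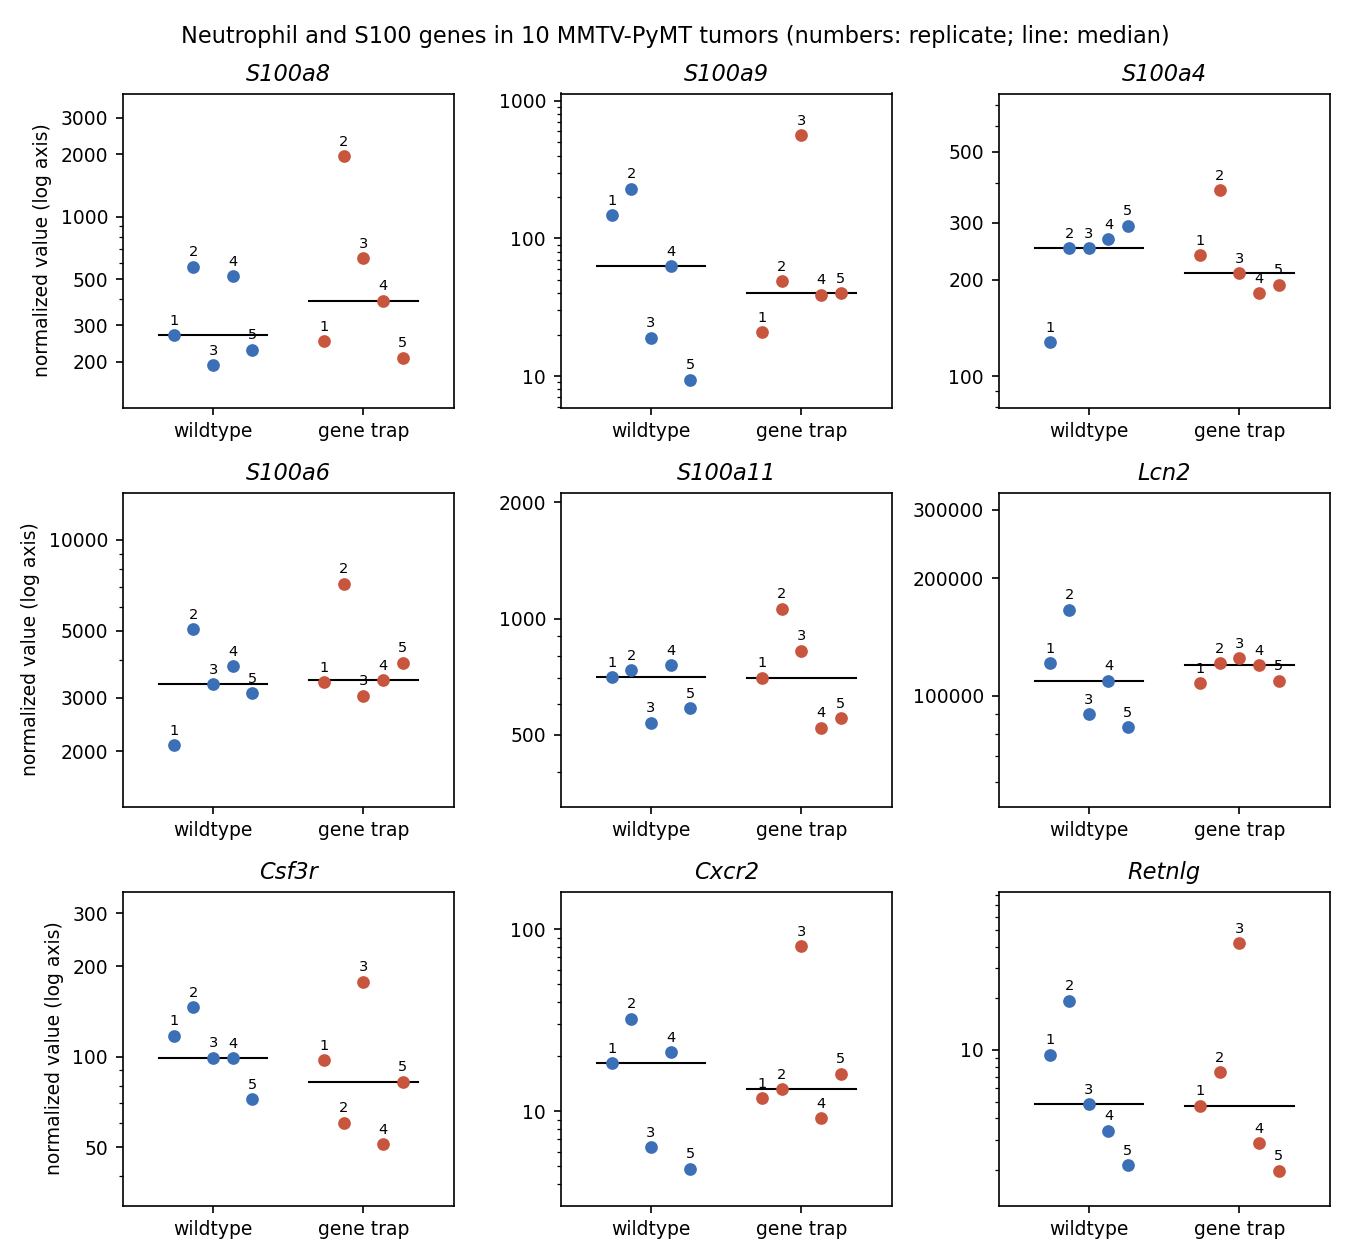
Normalized value (log axis) of the 9 members with values in each wildtype (blue) and gene trap (red) tumor, numbered by replicate, with the group median as a line. The high points are gene trap tumor 2 for *S100a8*, *S100a4*, *S100a6* and *S100a11*, gene trap tumor 3 for *S100a9*, *Csf3r*, *Cxcr2* and *Retnlg*, and wildtype tumor 2 for *Lcn2*.

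*S100a8* (ENSMUSG00000056054) encodes one chain of calprotectin. Its normalized values were 269, 574, 193, 516 and 229 in wildtype tumors 1 to 5, and 252, 1962, 632, 393 and 209 in gene trap tumors 1 to 5. Gene trap tumor 2 was more than 3 times as high as any other tumor, and the other 4 gene trap tumors, at 209 to 632, overlapped the wildtype tumors at 193 to 574. Wildtype tumors averaged 356 ± 176 and gene trap tumors 689.6 ± 730.1 (SD, n = 5 in each group). The log2 fold change was 0.57 (SE 0.54, 95% interval -0.60 to 1.75, limma p = 0.310, exact permutation p = 0.452). Without gene trap tumor 2 the fold change was 0.07, and without gene trap tumors 2 and 3 it was -0.23.

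*S100a9* (ENSMUSG00000056071) encodes the other chain of calprotectin. Its values were 147, 231, 19.0, 62.7 and 9.43 in wildtype tumors 1 to 5, and 20.8, 49.1, 565, 39.0 and 40.2 in gene trap tumors 1 to 5. The highest tumor was 59.9 times the lowest, the widest range of any member. Here gene trap tumor 3 was highest, gene trap tumor 2 was in the middle of the tumors, and wildtype tumors 1, 2 and 4 exceeded the other 4 gene trap tumors. Wildtype tumors averaged 93.8 ± 93.9 and gene trap tumors 143 ± 236 (SD, n = 5 in each group). Its log2 fold change was 0.23 (SE 0.97, 95% interval -1.87 to 2.34, limma p = 0.815, exact permutation p = 0.865), and it was -0.56 without gene trap tumor 3. An interval this wide includes a halving and a doubling of the gene.

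The 2 chains of calprotectin therefore did not keep a fixed ratio. Per kilobase of transcript *S100a8* was above *S100a9* in 10 of 10 tumors, by a ratio of 1.19 in gene trap tumor 3, 42.7 in gene trap tumor 2 and 9.72 at the median. In wildtype tumors the ratio ran from 1.95 in tumor 1 to 25.96 in tumor 5. The log2 ratio was 2.73 ± 1.53 in wildtype against 3.05 ± 1.89 in gene trap tumors (SD, n = 5 in each group), a difference of 0.33 (exact permutation p = 0.754). Across the 10 tumors the log2 values of the pair had a Pearson r of 0.43 (permutation p = 0.214, adjusted over 36 pairs 0.360) and a Spearman rho of 0.72 (permutation p = 0.0240, adjusted 0.115). Leaving out gene trap tumors 2 and 3, which lay farthest from the median of *S100a8*, gave an r of 0.66.

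**Figure D2:**
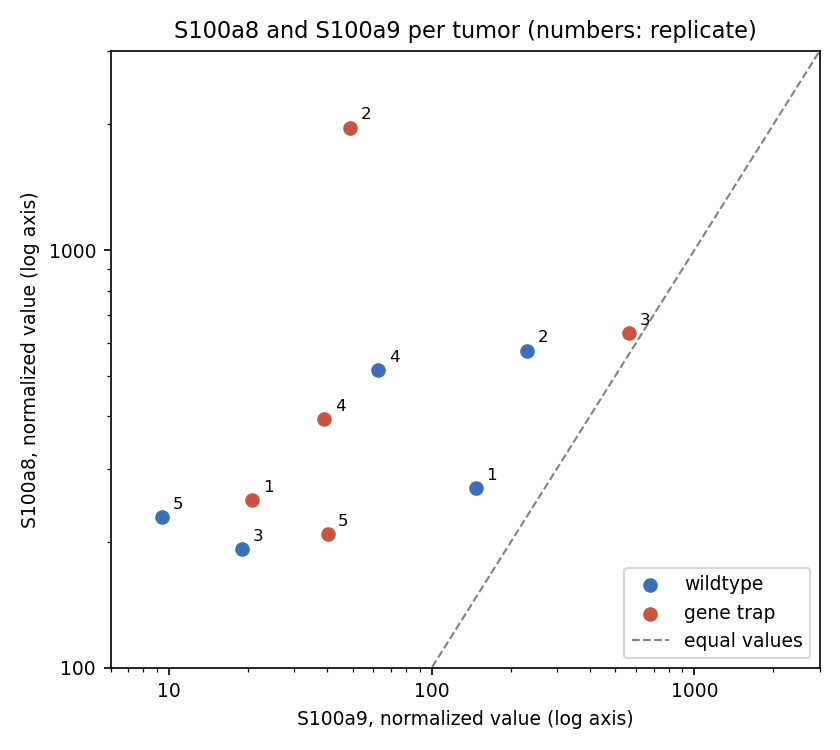
Normalized value of *S100a8* against that of *S100a9* in each tumor (both axes log; blue, wildtype; red, gene trap; numbers, replicate; dashed line, equal values). Gene trap tumor 2 has the highest *S100a8* at 1962 with *S100a9* at 49.1, and gene trap tumor 3 comes closest to the line with 632 and 565.

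The receptors came next. *Csf3r* (ENSMUSG00000028859), the receptor for granulocyte colony-stimulating factor, had values of 118, 146, 99.2, 98.8 and 72.04 in wildtype tumors 1 to 5, and 97.2, 60.3, 177, 51.1 and 82.6 in gene trap tumors 1 to 5. Gene trap tumor 3 was again the highest, while gene trap tumors 2 and 4 were below every wildtype tumor. Wildtype tumors averaged 107 ± 27.4 and gene trap tumors 93.7 ± 50.2 (SD, n = 5 in each group), and *Csf3r* was the one tested member with a fold change below 0. That log2 fold change was -0.29 (SE 0.31, 95% interval -0.96 to 0.38, limma p = 0.366, exact permutation p = 0.444). It was -0.55 without gene trap tumor 3, with an unadjusted limma p of 0.0476 and an adjusted p no lower than 0.9786 under any alternative.

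*Cxcr2* (ENSMUSG00000026180), the receptor through which neutrophils follow CXC chemokines, was the lowest member per kilobase. It measured 18.4, 32.2, 6.36, 21.1 and 4.84 in wildtype tumors 1 to 5, and 11.8, 13.2, 80.7, 9.14 and 16.04 in gene trap tumors 1 to 5. Gene trap tumor 3 was above all others, wildtype tumor 2 came second, and the other 4 gene trap tumors sat inside the wildtype range. Wildtype tumors averaged 16.6 ± 11.3 and gene trap tumors 26.2 ± 30.6 (SD, n = 5 in each group). This gave a log2 fold change of 0.41 (SE 0.62, 95% interval -0.93 to 1.75, limma p = 0.515, exact permutation p = 0.611). Without gene trap tumor 3 the fold change turned to -0.11.

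*Retnlg* (ENSMUSG00000022651), a resistin-like gene of neutrophils, measured 9.37, 19.4, 4.82, 3.39 and 2.12 in wildtype tumors 1 to 5, and 4.74, 7.44, 42.0, 2.87 and 1.98 in gene trap tumors 1 to 5. The same 2 tumors led as for *Cxcr2*, gene trap tumor 3 and then wildtype tumor 2, and the groups overlapped. Without gene trap tumor 3, the gene trap values spanned 1.98 to 7.44, inside the wildtype range at all but the low end. Because its mean over all tumors was 9.81, it was fitted only where no filter on low values was applied, with a log2 fold change of 0.10 (SE 0.70, 95% interval -1.42 to 1.62, limma p = 0.886, adjusted p = 0.9998, exact permutation p = 0.913).

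*Lcn2* (ENSMUSG00000026822) encodes lipocalin-2, an iron-siderophore carrier stored in neutrophil granules and also secreted by epithelial cells. Its values were 121148, 166116, 89767, 109420 and 83166 in wildtype tumors 1 to 5, and 107737, 121180, 124859, 119668 and 109441 in gene trap tumors 1 to 5. It was the most abundant member and the steadiest, with a highest value 2.00 times the lowest. All gene trap tumors lay within the wildtype range and close together, at 116577 ± 7556 (SD, n = 5) against 113923 ± 32887 (SD, n = 5) in wildtype. The fitted log2 fold change was 0.08 (SE 0.18, 95% interval -0.31 to 0.46, limma p = 0.676, exact permutation p = 0.746), and without wildtype tumor 5 it was -0.03.

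The remaining S100 members are expressed far beyond neutrophils. *S100a6* (ENSMUSG00000001025), which encodes calcyclin, measured 2097, 5052, 3331, 3819 and 3110.3 in wildtype tumors 1 to 5, and 3377, 7167, 3051, 3435 and 3919 in gene trap tumors 1 to 5. Gene trap tumor 2 was highest and wildtype tumor 2 second, while the other gene trap tumors fell among the wildtype values. Wildtype tumors averaged 3482 ± 1079 and gene trap tumors 4189.7 ± 1693 (SD, n = 5 in each group). On the log2 scale the difference was 0.25 (SE 0.25, 95% interval -0.30 to 0.80, limma p = 0.341, exact permutation p = 0.429), and 0.04 without gene trap tumor 2 or 0.08 without wildtype tumor 1.

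*S100a4* (ENSMUSG00000001020), which encodes metastasin, a protein of motile fibroblasts and leukocytes, measured 128, 251, 251, 267 and 294 in wildtype tumors 1 to 5, and 238, 380, 209.7, 181 and 192 in gene trap tumors 1 to 5. Wildtype tumor 1 was the lowest and gene trap tumor 2 the highest. Those 2 tumors were set aside after their values were seen, a choice that by itself moves wildtype above gene trap tumors. The other 4 wildtype tumors were then at 251 to 294, and the other 4 gene trap tumors at 181 to 238. The share of all genes that part under such trimming was not counted, so the parting is not read as a result. With all tumors the groups overlapped. The means were 238 ± 64.1 in wildtype against 240.1 ± 80.8 in gene trap tumors (SD, n = 5 in each group), with a log2 fold change of 0.01 (SE 0.25, 95% interval -0.53 to 0.56, limma p = 0.956, exact permutation p = 0.960). The fold change was -0.20 without wildtype tumor 1 and -0.16 without gene trap tumor 2, and it was -0.01 when every tumor was rescaled to the same total.

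*S100a11* (ENSMUSG00000027907), which encodes calgizzarin, an annexin-binding S100 protein, measured 705, 736, 537, 759 and 587 in wildtype tumors 1 to 5, and 703, 1061, 825, 521 and 551 in gene trap tumors 1 to 5. Gene trap tumors 2 and 3 were above all wildtype tumors, and gene trap tumor 4 was below them. Wildtype tumors averaged 665 ± 97.4 and gene trap tumors 732 ± 221 (SD, n = 5 in each group). The log2 difference by genotype was 0.10 (SE 0.18, 95% interval -0.30 to 0.50, limma p = 0.589, exact permutation p = 0.651), and -0.04 without gene trap tumor 2.

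**Figure D3:**
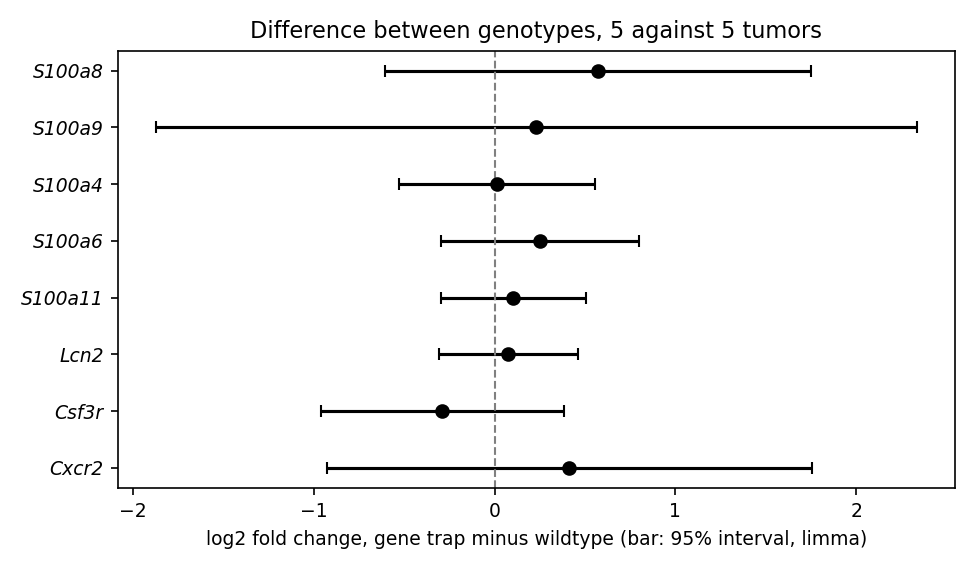
Log2 fold change, gene trap minus wildtype, of the 8 tested members, with 95% intervals from limma (n = 5 tumors per group). Every interval includes 0, and the widest is that of *S100a9*, from -1.87 to 2.34.

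Gene trap tumor 2 was the highest of the 10 for 7 of the 14 measured S100 genes, members included (50%, against 22.4% of all tested genes). It was highest for 64.3% of all genes with short transcripts, defined here as under 700 bases, a class that holds 7 of the 14 S100 genes. In it are *S100a8* (486 bases), *S100a4* (498), *S100a11* (511) and *S100a9* (519), whereas *S100a6* (731) is in the next longer class. *S100a8* deviated from the median of the other 9 tumors by 2.86 on the log2 scale there, *S100a6* by 1.09, *S100a4* by 0.67, *S100a11* by 0.59 and *S100a9* by 0.28. The median deviation of all genes under 700 bases was 0.73, with the middle of the distribution between 0.17 and 1.12 (quartiles), and of the members of that class *S100a8* alone was above the upper quartile. *S100a6* was above the upper quartile of 0.55 of the next longer class, where *Lcn2* deviated by 0.15. *Csf3r* and *Cxcr2*, with transcripts of 3481 and 3046 bases, deviated by -0.70 and -0.26. The part of transcript length or RNA quality in the S100 values of that tumor was not tested.

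**Figure D4:**
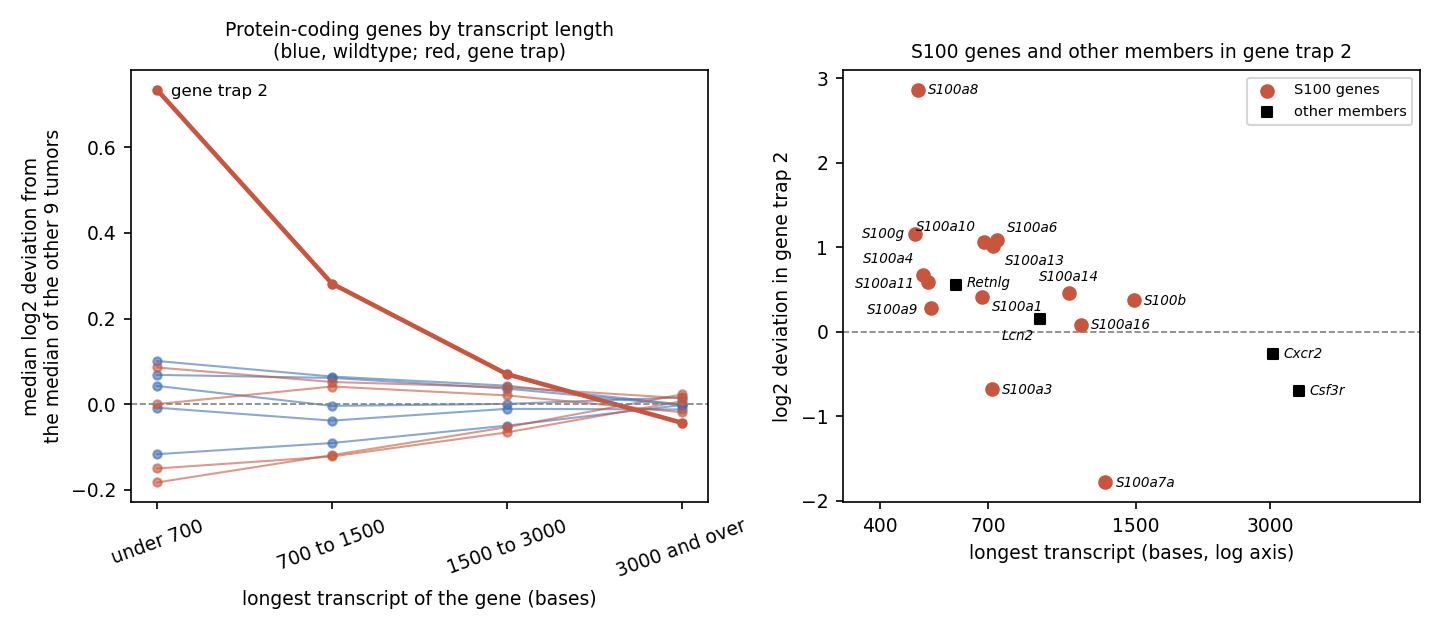
Left, median log2 deviation of protein-coding genes in each tumor from the median of the other 9, by length of the longest transcript (blue, wildtype; red, gene trap); gene trap tumor 2 (thick line) falls from 0.73 for transcripts under 700 bases to -0.04 in the longest class. Right, log2 deviation in gene trap tumor 2 of each measured S100 gene and other member against transcript length (log axis), from 2.86 for *S100a8* to -1.78 for *S100a7a*.

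Gene trap tumor 3 was the highest of the 10 for 4 of the 9 members with values, *S100a9*, *Csf3r*, *Cxcr2* and *Retnlg*. It was also highest for 9 (39.1%) of 23 other measured genes of neutrophil granules, oxidase, surface and effector functions. The share of all tested genes was 7.29%, which leaves out genes under the minimum mean of 10. The 9 members and the 23 genes include such low genes, some of them highest in that tumor. By summed value that tumor did not stand apart, with 36199 for the granule and oxidase genes against 26942 to 49584 in the others, and 4978 for the surface and effector genes against 4508 to 7159. The largest single parts of these 2 sums there were *Ltf*, at 26352, and *G0s2*, at 2361, so genes of low value weigh little in them. Among the 23 genes, the collagenase gene *Mmp8*, chosen after its values were seen, measured 47.3 in gene trap tumor 3 and 2.59 to 16.2 in the other tumors. Some markers of other blood cells were high in the same tumor. T and NK cell markers (9 of 9 measured) summed to 482 there, against 105 to 319 in the other tumors. They were highest there for 6 genes, all of T cells, and the NK cell genes of the list were not highest there. B cell markers (2 of 5 measured) summed to 353 against 14.5 to 209.7. Of the B cell genes, *Jchain* measured 184 in gene trap tumor 3 and was highest in wildtype tumor 5, at 193. Macrophage markers (10 of 10 measured) summed to 13412 in gene trap tumor 3, inside the range of 12273 to 17850 of the others. Erythroid markers (5 of 6 measured) summed to 22914 in gene trap tumor 3 and 64631 in wildtype tumor 2, the 2 tumors highest in *S100a9*, *Cxcr2* and *Retnlg*, and to between 4217 and 14146 in the other 8. The part of blood or lymphoid tissue in the values of these tumors was not tested.

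**Figure D5:**
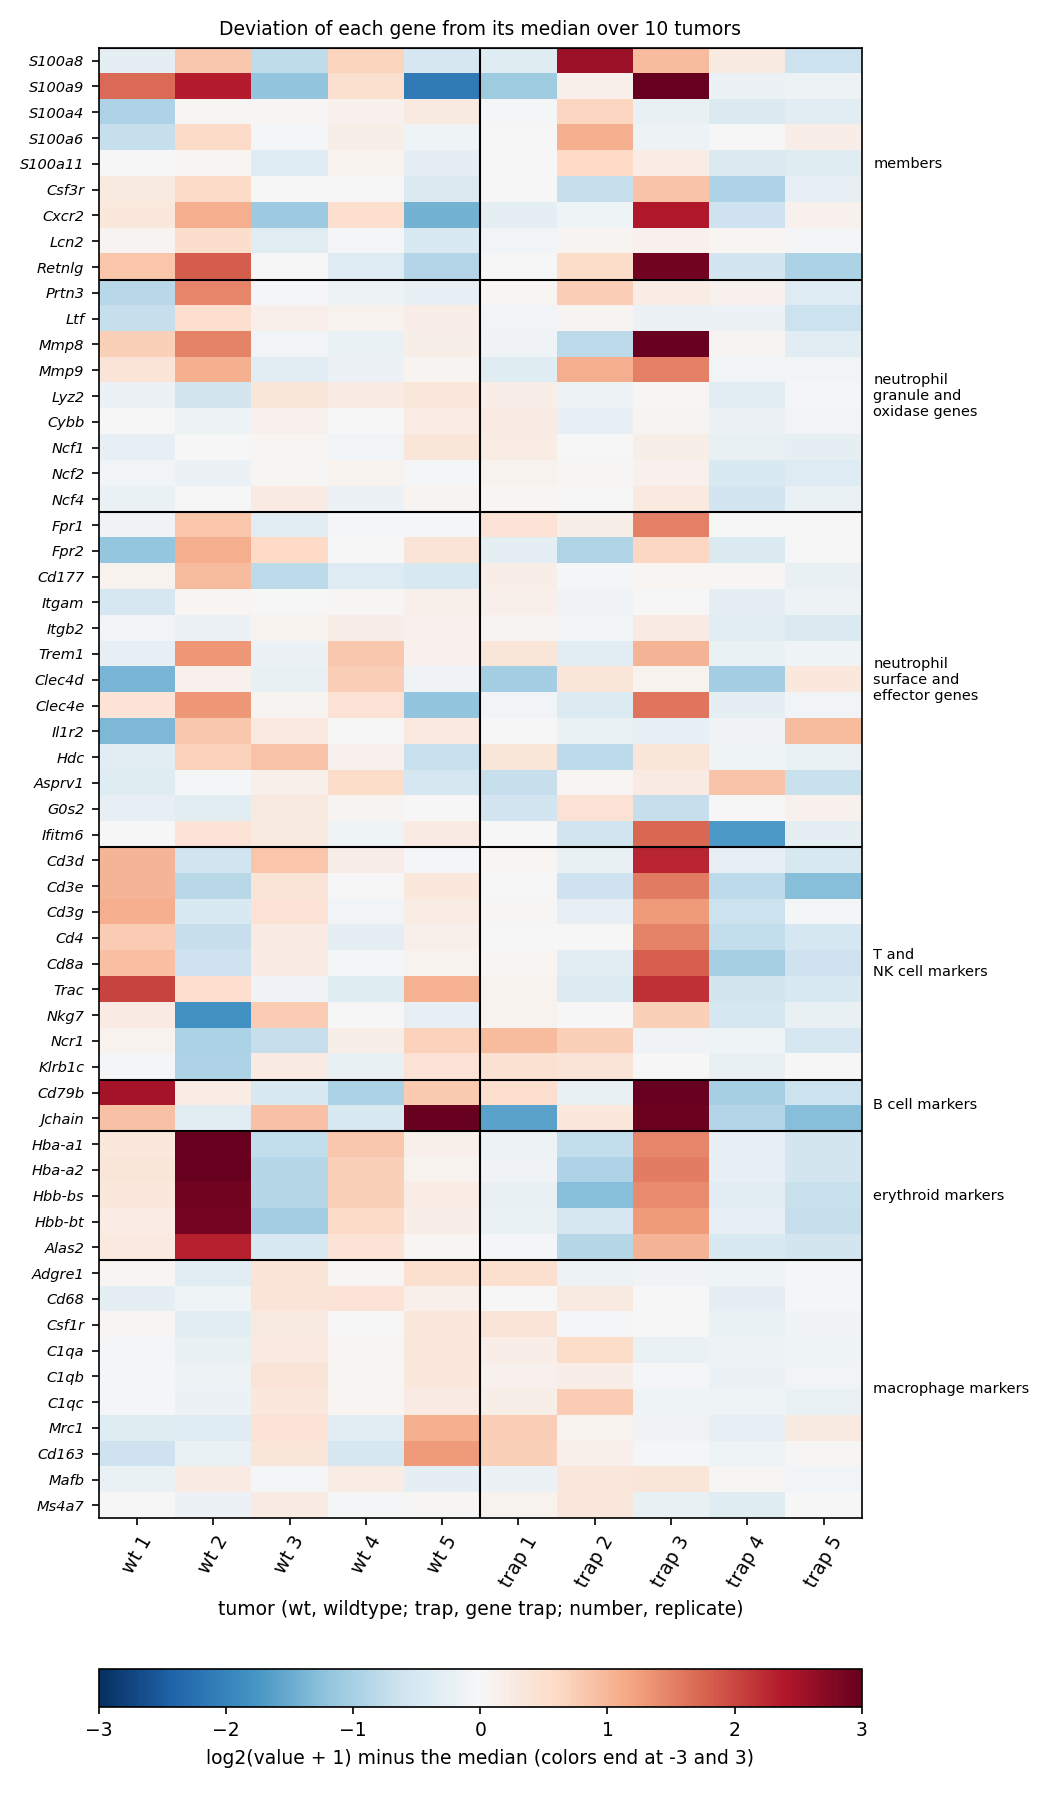
Log2(value + 1) of each gene minus its median over the 10 tumors (color, ending at -3 and 3), for the members and for genes of neutrophils, T and NK cells, B cells, erythroid cells and macrophages. The column of gene trap tumor 3 is red for *S100a9*, *Cxcr2*, *Retnlg*, *Mmp8* and T and B cell genes, and that of wildtype tumor 2 for the erythroid genes.

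Pairs of members were compared across the 10 tumors, with the genotypes pooled. Of 36 pairs of members, 28 had a Pearson r above 0, 6 had an adjusted permutation p of r under 0.05, and 2 of these also had an adjusted p of Spearman's rho under 0.05. The closest pair was *S100a9* and *Cxcr2*, with an r of 0.945 and a rho of 0.964 (permutation p = 8.0e-05 and 6.0e-05, adjusted 0.00288 and 0.00216). *S100a9* and *Lcn2* had an r of 0.782 and a rho of 0.879 (permutation p = 0.00801 and 0.00185, adjusted 0.0481 and 0.0333). Without gene trap tumor 3 and wildtype tumor 2, the farthest from the median of *S100a9*, r was 0.849 for the first pair and 0.823 for the second (permutation p = 0.0069 and 0.00853, both with an adjusted p of 0.154). The other 4 pairs were *S100a9* with *Retnlg* (r of 0.872), *S100a8* with *S100a11* (0.852), *Cxcr2* with *Retnlg* (0.824) and *Csf3r* with *Retnlg* (0.773). Their adjusted p of r lay between 0.0191 and 0.0481, and r fell to 0.569, 0.567, 0.527 and 0.609 in that order without the 2 farthest tumors, and none of the 4 then had an adjusted p under 0.05. Without gene trap tumors 2 and 3, a choice made after seeing the data, the same pairs had an r of 0.772, 0.567, 0.632 and 0.804. Their adjusted permutation p then lay between 0.145 and 0.292. In that setting *S100a9* had an r of 0.905 with *Cxcr2* and 0.900 with *Lcn2*, both with an adjusted permutation p of 0.0452.

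The genes most like the neutrophil members were sought over all tested genes, by the correlation of log2 values over the 10 tumors with the mean z score of *S100a8*, *S100a9*, *Csf3r*, *Cxcr2* and *Retnlg*. The 5 with the highest r were *Rab36* (0.916), *Pigq* (0.916), *Ppm1m* (0.915), *Gm44432* (0.911) and *Treml2* (0.910). *Treml2*, a receptor of myeloid and lymphoid cells, ranged from 8.44 to 52.5 and was highest in gene trap tumor 3. For *S100a6* the 5 were *Cd63-ps* (0.964), *Gm42742* (0.962), *Vma21* (0.962), *Eva1b* (0.946) and *Eif1b* (0.942), all of them highest in gene trap tumor 2. Without gene trap tumor 3 the r of the first 5 genes was 0.882, 0.909, 0.854, 0.817 and 0.820 in the order given, and without gene trap tumor 2 that of the second 5 was 0.921, 0.930, 0.916, 0.881 and 0.876, in calculations added after seeing the data. These values rank genes over 10 tumors of 2 genotypes and carry no test.

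Other genes of neutrophil function did not pass the test by genotype either. In each list the gene with the largest mean normalized value, which is not scaled by transcript length, is named. Of the 9 tested granule and oxidase genes, 2 were higher and 7 lower in gene trap tumors, their median being -0.07 on the log2 scale, and 0 passed the threshold. That gene was *Ltf*, which encodes lactoferrin and is also a milk protein gene, at 32086 ± 8567 in wildtype against 26286 ± 4535 in gene trap tumors (SD, n = 5 in each group), a log2 fold change of -0.26 (SE 0.20, limma adjusted p = 0.9997 over all genes). Of the 11 tested surface and effector genes, 2 were higher and 9 lower, with a median of -0.08. *G0s2*, a lipase inhibitor gene, had the largest mean, at 3757 ± 629 in wildtype and 3606 ± 1159 in gene trap tumors (SD, n = 5). Other defining neutrophil genes (*Mpo*, *Elane*, *Ctsg*, *Camp*, *Ngp*, *Chil3*, *Cxcr1* and *Stfa2l1*) were not analysed here.

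Ligands that call neutrophils were examined in the same way. Of the 8 tested growth factor and chemoattractant genes, 5 were higher and 3 lower, with a median log2 fold change of 0.13. *Cxcl12*, the largest in value, keeps neutrophils in the bone marrow and measured 542 ± 101 in wildtype against 573 ± 147 in gene trap tumors (SD, n = 5 in each group). *Il23a*, which encodes the p19 subunit of the cytokine IL-23 upstream of granulocyte colony-stimulating factor, was the 1 gene of 28 in these lists of ligands and effectors with an unadjusted p under 0.05 (3.57%, against 2.28% of all tested genes). It measured 67.8, 72.2, 29.8, 72.1 and 32.8 in wildtype tumors 1 to 5, and 73.1, 69.9, 97.5, 137.6 and 64.6 in gene trap tumors 1 to 5. Gene trap tumors 1, 3 and 4 were above all wildtype tumors and the other 2 were inside their range. The log2 fold change was 0.72 (SE 0.31, limma p = 0.0379, adjusted p = 0.9997, exact permutation p = 0.111), so the difference did not pass.

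Of the 9 tested S100 genes outside the members, 6 were higher and 3 lower in gene trap tumors, their median being 0.15 on the log2 scale, and 0 passed the threshold. *S100a10*, the annexin A2 partner and the largest of them in value, measured 2616 ± 410 in wildtype against 3081 ± 1383 in gene trap tumors (SD, n = 5 in each group), with 5452 in gene trap tumor 2 and 1927 to 3034 in the other 4 gene trap tumors. Receptors and binding partners of S100 proteins and lipocalin-2 had 5 genes higher and 7 lower of 12 tested, with a median of -0.04. Their gene of largest value, *Myh9*, a nonmuscle myosin bound by S100A4, had a log2 fold change of 0.01 (SE 0.10). Acute phase and NF-kB response genes, the program that includes *Lcn2*, had 4 higher and 9 lower of 13 tested, with a median of -0.06 and with *Cp* (ceruloplasmin) as the largest in value at -0.05 (SE 0.16). Ly6 and resistin-like relatives of *Ly6g* and *Retnlg* had 2 higher and 5 lower of 7 tested, with a median of -0.08 and with *Ly6e* at -0.02 (SE 0.09).

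Markers of other cells in the tumors were counted beside these results. The median log2 fold change was -0.03 for 10 macrophage markers (4 higher, 6 lower), -0.14 for 7 tested T and NK cell markers (3 higher, 4 lower), -0.11 for 4 tested mast cell and basophil markers (0 higher) and -0.06 for 7 endothelial markers (2 higher, 5 lower). It was -0.02 for 10 luminal epithelial markers (4 higher), 0.17 for 3 tested keratinocyte markers (3 higher), 0.11 for 9 fibroblast markers (9 higher) and 0.05 for 4 tested skeletal muscle markers (3 higher). Myoepithelial markers were lower for 8 of 8 genes, with a median of -0.34 and a summed value of 5580 to 7497 in gene trap and 7421 to 9935 in wildtype tumors. Among them *Krt17*, a basal keratin gene, measured 716 ± 239 in wildtype and 451 ± 104 in gene trap tumors (SD, n = 5; log2 fold change -0.63, SE 0.23, limma p = 0.0174, adjusted p = 0.9997, exact permutation p = 0.0714). Erythroid markers were lower for 5 of 5 tested genes with a median of -0.72, B cell markers for 1 of 2 with a median of -0.40, and adipocyte markers for 2 of 2 with a median of -0.56. All 5 erythroid genes were highest in wildtype tumor 2, where they summed to 64631, against at most 22914 in any other tumor. Their fold changes without that tumor are not given here. Among immune and blood markers, the gene of largest value in each list was *C1qa* for macrophages with a log2 fold change of -0.02 (SE 0.15), *Cd4* for T cells with 0.01 (SE 0.40), *Jchain* for B cells with -0.90 (SE 0.86) and *Hbb-bs* for erythroid cells with -0.87 (SE 0.62). In the mast cell and basophil list it was *Kit* with -0.06 (SE 0.10). *Kit* averaged 7962 in wildtype and 7625 in gene trap tumors, and the other tested genes of its list averaged at most 33.3 in either group. Its value is therefore not read as a measure of mast cells. In the epithelial and stromal lists the gene of largest value was *Krt18* with 0.13 (SE 0.17), *Lgals7* with 0.17 (SE 0.36), *Acta2* with -0.43 (SE 0.20), *Col3a1* with 0.11 (SE 0.26), *Pecam1* with -0.13 (SE 0.19), *Fabp4* with -0.48 (SE 0.46) and *Acta1* with 0.08 (SE 0.55). None of the genes of these lists had an adjusted limma p under 0.05, and 1 of the 71 tested, *Krt17*, had an unadjusted p under 0.05 (1.41%, against 2.28% of all tested genes). *Lgals7* measured 4691 in gene trap tumor 2 and at most 1577 in the other tumors. The part of cell composition in the members' values was not tested.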

How the data were processed

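RNA of mammary tumors was prepared with Trizol and TruSeq Stranded Total RNA libraries. Per the submitters' processing notes, reads were handled in Partek with STAR (2.7.8a), DESeq2 and the build mm39; the counter and annotation are not given in the sources used here. The authors deposited a signal of estimated counts per gene, scaled between tumors. The scaling step for these tumors is not described by itself, but each column had a median ratio of 1.005 to 1.006 to the geometric mean of all, as median ratio scaling leaves it, and there were 0 zeros. The column totals of 31995078 to 42153593 are sums of normalized values, so the depth of each tumor is unknown and no interval for counting error is given. Of the 16 columns, 10 were matched to labelled tumors by name, with Con read as control, Hypo as gene trap and the number as the replicate, an inference that no source used here states. The other 6, which carry animal numbers that are in no label, were left out.

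Symbols were found for 22899 of 23609 genes. Tests used log2(value + 1), so 1 is the pseudocount, and fold changes of low genes come out too small on it. Genes with a mean of at least 10 were fitted with limma (3.58.1, R 4.3.3) by genotype, with a mean-variance trend and Benjamini-Hochberg adjustment over 21034 genes. Nothing in the labels describes the tumors beyond separate samples of littermates, and the p-values measure the spread between them. Single genes were compared by exact two-sided permutation, and correlations by 100000 permutations (scipy 1.17.1, Python 3.11.15). The fit was tested on simulated data.

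Transcript lengths are those of the longest transcript in GENCODE mouse release 21, and promoters are from RefSeq (GRCm38.p6), found for all 9 members with values. The 3 motifs were chosen with the sequences in view. Members and lists were chosen with earlier results of these data known. Named genes are the members, *Resf1*, the gene of largest mean value in each list with those at an unadjusted p under 0.05, and the 5 genes most like each of 2 patterns; *Mmp8* was added after its values were seen. One gene that is counted in a list is not reported here by name. The alternatives were other pseudocounts and filters, quantile normalization, one column total, no trend, weights per tumor, a replicate block and each tumor left out. Figures were drawn with matplotlib (3.10.9).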

Additional observations from a re-analysis of the deposited data

Results flagged for a closer look

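Values were examined in 20 groups of 5 tumors (10 genes, *Resf1* included, in 2 genotypes). Of these, 7 lay farther from their group than Dixon's 95% critical value for the gap over the range. The gap was taken on normalized values, not on the log2 scale of the other tests. About 1 such value would be expected by chance for normally distributed values in independent groups. The genes share the same tumors, so that number is not a test here. In gene trap tumor 3, *S100a9* measured 565, with 20.8 to 49.1 in the other gene trap tumors, *Cxcr2* 80.7 against 9.14 to 16.04, and *Retnlg* 42.0 against 1.98 to 7.44. In gene trap tumor 2, *S100a8* measured 1962 where the rest of its group spanned 209 to 632, *S100a6* 7167 against 3051 to 3919, and *S100a4* 380 against 181 to 238. The remaining value was low, *S100a4* in wildtype tumor 1, at 128 where the other 4 of its group spanned 251 to 294.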

How the results depend on the processing

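The number of members and of all genes past an adjusted p of 0.05 was 0 under each of the 20 alternatives, with 304 to 694 genes at an unadjusted limma p under 0.05 (479 in the fit reported). The direction of *S100a6*, *Csf3r* and *Resf1* held under all 20. Leaving out both gene trap tumors 2 and 3, an alternative chosen after seeing the data, turned the log2 fold change of *S100a8* to -0.23, *S100a9* to -0.71, *S100a4* to -0.18, *S100a11* to -0.17 and *Cxcr2* to -0.14. *S100a9* was also reversed without wildtype tumor 3 (-0.13), wildtype tumor 5 (-0.36) or gene trap tumor 3 (-0.56). *S100a4* was reversed by one column total (-0.0132), by weights per tumor (-0.13) and without wildtype tumor 1 (-0.20) or gene trap tumor 2 (-0.16). Reversals also came without gene trap tumor 2 for *S100a11* (-0.0438), gene trap tumor 3 for *Cxcr2* (-0.11) and wildtype tumor 5 for *Lcn2* (-0.0269). The cause was not tested. With 1 tumor left out, the fold change ranged from 0.07 to 0.87 for *S100a8*, -0.56 to 0.76 for *S100a9*, -0.20 to 0.10 for *S100a4*, 0.04 to 0.40 for *S100a6*, -0.04 to 0.21 for *S100a11*, -0.55 to -0.11 for *Csf3r*, -0.11 to 0.71 for *Cxcr2*, -0.03 to 0.22 for *Lcn2* and -0.28 to -0.17 for *Resf1*.

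The correlation calls were less stable. Without the 2 farthest tumors none of the 6 pairs kept an adjusted p under 0.05. Without gene trap tumors 2 and 3, *S100a9* with *Cxcr2* and *S100a9* with *Lcn2* kept one (adjusted permutation p of 0.0452 for both), and the other pairs did not. With a pseudocount of 0.1 the adjusted permutation p was 0.0548 for *S100a9* with *Lcn2* and 0.0561 for *Csf3r* with *Retnlg*. A pseudocount of 10 gave 0.0539 for *S100a9* with *Lcn2*. *Retnlg* was fitted only with no filter, and *Cxcr2* could not be fitted at a mean of at least 50.

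Equal replicate numbers do not mark one animal, and the correlations of their deviations were 0.103, -0.00305, -0.156, 0.149 and -0.142, so the number does not pair tumors. With the replicate block the fold changes were the same by construction, 0.57 for *S100a8* and 0.25 for *S100a6* among them, and 0 members and 0 genes passed, with 426 genes at an unadjusted p under 0.05. Depth is unknown, so no limit for low genes such as *Retnlg* is given.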
